A study of Drosophila melanogaster with 4 samples.

Results

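The genes described here encode the motors that carry cargo along the cytoskeleton in the Drosophila ovary and the proteins that link or anchor the filaments they run on. They were taken from a list of 10 symbols: the kinesin-1 subunits Khc and Klc, the dynein and dynactin genes Dhc64C, sw, Lis-1 and DCTN1-p150, the linkers shot and Patronin, the kinesin pav and the myosin didum. All 10 were found among 17440 gene loci and all passed the filter on low counts, which left 7784 genes for the test.

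Ribosome footprints were sequenced from ovaries of wildtype females (2 libraries) and of females mutant for RpS5b (2 libraries). RpS5b is a gene for one of the paralogous small-subunit ribosomal proteins of this fly. Flies of both groups were kept at 25 °C and dissected 48 hours after eclosion. Any stage 10 to stage 14 egg chambers were removed from the control ovaries only. Genotype and this removal therefore cannot be told apart in any comparison of the groups. The RpS5b allele and the wildtype strain are not given in the sources used here, and no label says that libraries of a group came from separate sets of animals, so p-values speak of the variation among these libraries alone, and that variation may be technical. A footprint is a piece of mRNA protected by a ribosome, and its count therefore depends both on the amount of an mRNA and on its load of ribosomes. In bulk tissue, fewer cells of a type and less RNA per cell cannot be told apart.

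Kinesin-1 walks toward microtubule plus ends as a pair of Khc heavy chains, usually with Klc light chains that bind cargo, and in the fly oocyte it moves oskar mRNA toward the posterior and drives cytoplasmic streaming. Cytoplasmic dynein walks the opposite way, needs dynactin and Lis-1 for full activity, and carries mRNAs and proteins from nurse cells into the oocyte. Shot and Patronin hold microtubule minus ends at the oocyte cortex, Pavarotti bundles microtubules and lines the ring canals between germ cells, and the myosin V encoded by didum works on actin, where it helps to retain oskar mRNA at the posterior cortex.

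The libraries held 3122299 and 6170623 reads (wildtype) and 13942184 and 8714570 reads (mutant), of which between 1053430 and 4599829 were counted in protein-coding genes. RpS5b itself had 287 and 342 counts in wildtype libraries but 10 and 9 in mutant ones. Of the markers of other tissues, 6 of 7 for gut, 4 of 7 for fat body (Lsp1alpha, Lsp1gamma, Fbp1 and Fbp2), 2 of 6 for nerve (Syt1 and brp) and 1 of 6 for blood cells (He) were at 0 in every library, and none of 11 for muscle was. Their summed levels in the wildtype and mutant libraries were 189 and 133 against 200 and 200 CPM for muscle, 41.5 and 45.8 against 57.8 and 54.4 CPM for blood cells, 20.7 and 16.8 against 44.0 and 39.7 CPM for fat body, and 2.27 and 1.85 against 7.39 and 6.89 CPM for nerve. Of these lists, 2 of 10 tested muscle genes, 1 of 3 blood cell genes (crq), 1 of 2 nerve genes (nrv3) and the only tested fat body gene, apolpp, were higher. Over all genes tested, edgeR called 20.4% higher and 20.9% lower, so the muscle count lies at that share. Marker levels of ovarian cell types nevertheless differed between the groups. As late egg chambers were removed from the control ovaries only, genotype and dissection cannot be told apart here. The summed level of 12 chorion genes of late egg chambers was 7327 and 4964 CPM (counts relative to library size, scaled by edgeR's TMM factors) in the wildtype and 1662 and 1149 CPM in the mutant, and 11 of the 12 were lower. Of 9 follicle cell markers tested, 8 were higher, and these summed to 220 and 204 CPM against 481 and 449 CPM. With Vm26Aa, the vitelline membrane gene that did not pass, the whole list summed to 1636 and 956 CPM against 2192 and 1621 CPM, which overlap. Of 10 germline markers tested, 4 were lower, 1 was higher and 5 did not pass. The list summed to 2506 and 2257 CPM against 999 and 1055 CPM, and without yl, the yolk protein receptor, to 1035 and 910 CPM against 695 and 764 CPM. The lower ones were yl (log2 fold change -2.24), osk (-1.98), stau (-1.48) and the joint locus of Bic-C and CG45084 (-1.16), with edgeR adjusted p from 0.0002 to 0.0018. Footprints of osk stood at 81.0 and 72.5 CPM in the wildtype against 15.9 and 23.1 CPM in the mutant. The higher one was aub, a protein of the piRNA pathway (log2 fold change 0.50, SE 0.14, edgeR adjusted p = 0.0279), and vas, an RNA helicase of the germline, stood at 115 and 111 CPM against 107 and 120 CPM. The part of these shifts in the results below was not tested.

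Footprints of kinesin-1 and of Lis-1 were lower in the mutant, and those of shot and pav were higher. In edgeR's quasi-likelihood test with Benjamini-Hochberg adjustment over all genes, 5 of the 10 genes passed an adjusted p of 0.05, where 41.3% of all genes tested did, so the share lies near the background. The 3 lower genes were Khc, Klc and Lis-1, against 20.9% of all genes, and the 2 higher genes were shot and pav, against 20.4%. The other 5 did not pass. In all 10 genes the wildtype and mutant CPM did not overlap, where 71.8% of all genes tested do not. The mutant lay below in 6 of them (34.3% of all genes) and above in 4 (37.6% of all genes). The median log2 fold change was -0.31 over the members and 0.03 over all genes tested, whose quartiles were -0.49 and 0.53.

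**Figure D1:**
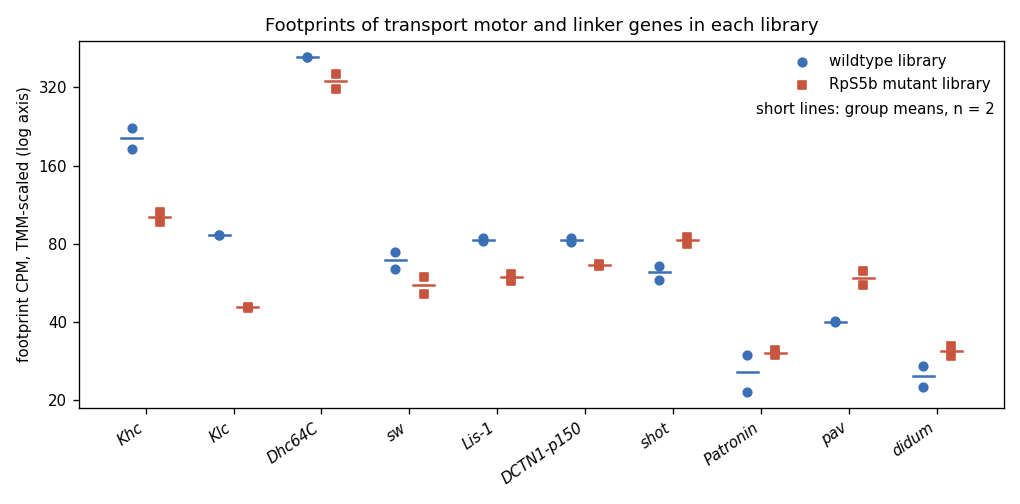
Footprint level of each gene in each library, in CPM scaled by TMM on a log axis, with circles for the 2 wildtype and squares for the 2 RpS5b mutant libraries and short lines for the group means. Both mutant libraries lie below both wildtype libraries for the kinesin-1, dynein and dynactin genes, and above them for shot, Patronin, pav and didum, though for Patronin mutant replicate 1 (29.9 CPM) barely exceeds wildtype replicate 1 (29.8 CPM).

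Khc, the heavy chain and motor of kinesin-1, had 223 and 186 CPM in the wildtype libraries and 106 and 97.2 CPM in the mutant libraries (689, 1009, 1362 and 847 counts). Every mutant value was well under the lower wildtype value. The means were 205 ± 26.1 and 102 ± 6.17 CPM (SD, n = 2 each) and differed by a log2 fold change of -1.01 with SE 0.16 (95% interval -1.38 to -0.63, edgeR's adjusted p = 0.00247). The only transcript listed for Khc is 3718 nt long and lies on the minus strand of chromosome 2R at 16266960 to 16271971 (build BDGP6).

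Klc, the light chain through which kinesin-1 binds many of its cargoes, gave the tightest groups of the kinesin-1 pair. It had 86.2 CPM in both wildtype libraries and 45.9 and 45.2 CPM in the mutant libraries, from 266, 467, 590 and 394 counts. The mutant level was lower by 1.89-fold, a log2 fold change of -0.92 with SE 0.13 (edgeR's adjusted p = 0.00138). Klc lies on the minus strand of chromosome 3L at 12746616 to 12750056, and its 3′ end overlaps CG32109 on the other strand, so reads of that overlap cannot be assigned if the counting did not use strand. Khc and Klc are the members whose calls held in all 13 alternative settings, with log2 fold changes from -1.15 to -0.88 for Khc and from -1.04 to -0.87 for Klc.

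The log2 fold changes of both chains were close. The ratio of Klc to Khc in RPKM (reads per kilobase of transcript, scaled to the reads of the library, as deposited) was 0.779 and 0.934 in wildtype and 0.874 and 0.938 in mutant libraries, so the groups overlapped. Per unit of length Khc had the highest level of the 10 genes in every library, at 59.4, 44.0, 26.3 and 26.1 RPKM. The RPKM divides by whole transcript lengths, so ranks and ratios between genes as levels depend on stretches with few footprints. An example is the 1187 nt of Lis-1 given below.

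Dhc64C, the heavy chain of cytoplasmic dynein, had the most counts of the members, 1287 and 2259 in wildtype and 4036 and 3138 in mutant libraries. Its level was 417 CPM in both wildtype libraries and 314 and 360 CPM in the mutant libraries, so the mutant libraries were below the wildtype but apart from each other. The log2 fold change of -0.31 (SE 0.17, 95% interval -0.69 to 0.08) did not pass (edgeR adjusted p = 0.176). The counted transcript spans 4807368 to 4825687 on the minus strand of chromosome 3L and is 14401 nt long.

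The intermediate chain gene sw, which ties dynein to dynactin, had 74.5 and 64.0 CPM in the wildtype and 59.8 and 51.3 CPM in the mutant libraries. The nearest values of the groups lay close together, and the log2 fold change of -0.31 (SE 0.15) did not pass (edgeR adjusted p = 0.133). Values of sw are uncertain: 7 Sdic genes next to it on chromosome X, which arose in part from copies of sw, had between 68.0% and 89.1% of its counts in every library, as when the same reads are counted in several near-identical genes. The counted sw transcript lies at 20227961 to 20236198 on the minus strand.

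Lis-1, which binds the dynein motor domain and promotes its activation, had 81.9 and 84.3 CPM in the wildtype and 57.6 and 61.2 CPM in the mutant libraries (253, 457, 741 and 533 counts). The spread within each group was small beside the gap between them. Footprints fell by 0.49 on the log2 scale (SE 0.13, edgeR adjusted p = 0.0212). The call was lost when any 1 library was left out: leaving out wildtype replicate 1 or 2 gave an adjusted p of 0.0533 or 0.0677, and leaving out mutant replicate 1 or 2 gave 0.103 or 0.0508, with log2 fold changes from -0.52 to -0.47. It was also lost with total counts in place of TMM (0.164) and in DESeq2 (0.0899). Nearly all Lis-1 footprints fell in a core of 1675 nt, with 251, 455, 738 and 524 counts. This core is a shorter Lis-1 transcript that lies wholly within the counted one. The other 1187 nt of the counted transcript, mostly its 3′ end, held 2, 2, 3 and 9. Lis-1 lies on the plus strand of chromosome 2R at 16178826 to 16185103.

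DCTN1-p150, known in flies as Glued, is the dynactin subunit that binds both microtubules and the dynein intermediate chain. It had 84.2 and 81.4 CPM in the wildtype and 66.7 and 65.6 CPM in the mutant libraries. The libraries of each group lay within a few CPM of each other, and the groups did not overlap. The log2 fold change of -0.32 (SE 0.13, 95% interval -0.62 to -0.02) did not pass (edgeR adjusted p = 0.0811). The gene lies on the plus strand of chromosome 3L at 13929387 to 13934656.

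Dhc64C, sw and DCTN1-p150 had log2 fold changes between -0.32 and -0.31, and their RPKM ratios to Dhc64C overlapped between the groups. For sw the ratio was 0.884 and 0.76 in wildtype and 0.943 and 0.705 in mutant libraries. For DCTN1-p150 it was 0.639 and 0.618 against 0.673 and 0.576. The kinesin-1 genes had ratios to Dhc64C that did not overlap: that of Khc was 2.07 and 1.73 in wildtype and 1.31 and 1.05 in mutant libraries, and that of Klc was 1.61 and 1.62 against 1.14 and 0.981. The ratio of Lis-1 to Dhc64C also did not overlap, at 0.989 and 1.02 in wildtype and 0.924 and 0.855 in mutant libraries. In these 3 ratios the mutant libraries lay below the wildtype, by 0.70 for Khc, 0.61 for Klc and 0.18 for Lis-1 on the log2 scale. An exact permutation test of 2 libraries against 2 cannot give a two-sided p under 0.333, which all 3 reached, and 13 such pairs of genes were compared, so none of them can pass.

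**Figure D2:**
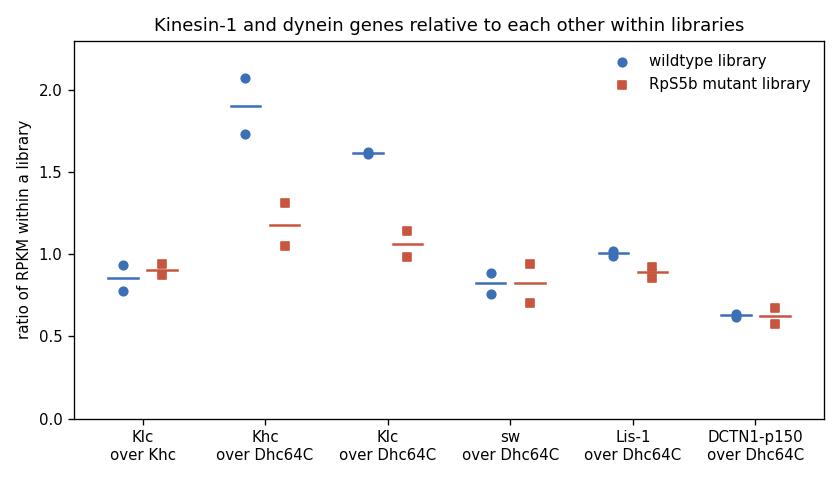
RPKM of one gene over RPKM of another within each library, with circles for wildtype and squares for RpS5b mutant libraries and lines for the group means. Khc, Klc and Lis-1 over Dhc64C are lower in both mutant libraries, whereas Klc over Khc and sw and DCTN1-p150 over Dhc64C overlap.

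The rest of the dynein machinery was described from lists of its known genes. Of 7 tested dynein subunits and regulators none passed edgeR's test, where 41.3% of all genes tested did. At an unadjusted p under 0.05, for which the share of all genes is not given here, 2 of these 7 genes were higher and 0 lower. DESeq2 called 0 of 8 genes of this list, where it called 795 higher and 1040 lower of 10636 genes. In edgeR the median log2 fold change of the 7 genes was 0.05. The light intermediate chain Dlic, the light chain robl and the Lis-1 partner nudE had log2 fold changes of -0.24 (SE 0.17), 0.50 (SE 0.19) and -0.61 (SE 0.26). Of the 8 untested genes of this list, 7 had 0 counts in all libraries, among them kl-2, kl-3 and kl-5, dynein heavy chains of the sperm tail.

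Of 9 dynactin subunits 1 was lower, cpb, the beta subunit of capping protein (log2 fold change -0.44, SE 0.14, edgeR adjusted p = 0.0365). DESeq2 called 0 of the 9, where it called 795 higher and 1040 lower of 10636 genes. In edgeR 11.1% of the list passed, against 41.3% of all genes tested. The call of cpb was lost in 6 of 13 alternatives, among them leaving out wildtype replicate 1 (adjusted p = 0.13) and mutant replicate 1 or 2 (0.111 or 0.0769). The other 8 had log2 fold changes between -0.43 and 0.18. Arp1, the actin-related protein that forms the dynactin filament, had 36.0 and 37.5 CPM against 41.7 and 41.3 CPM, so its RPKM ratio to DCTN1-p150 was 1.32 and 1.43 in wildtype and 1.93 and 1.95 in mutant libraries. The ratio of DCTN2-p50, or dynamitin, to DCTN1-p150 was 1.93 and 1.75 against 1.96 and 2.24. For both ratios the exact permutation p was 0.333, the smallest possible.

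Of 8 tested adaptors and recruiters of dynein 4 were lower and 1 higher (62.5%, against 41.3% of all genes tested), with a median log2 fold change of -0.69. The lower ones named by rule were Spindly (-1.95, SE 0.18) and rod (-1.66, SE 0.16), which bring dynein to kinetochores in mitosis (edgeR adjusted p = 0.000287 and 0.000331). Rab6, a GTPase of Golgi vesicles, was higher (0.72, SE 0.17, edgeR adjusted p = 0.0134). Its call was lost in DESeq2 (adjusted p = 0.118), with libraries thinned to one total (edgeR adjusted p = 0.108) and without wildtype replicate 2 (log2 fold change 0.44). BicD and egl, the adaptor pair that links dynein to localised mRNAs in the oocyte, did not pass, with log2 fold changes of -0.29 (SE 0.13, adjusted p = 0.116) and -0.11 (SE 0.19, adjusted p = 0.686).

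Of 8 tested kinesin-1 partners 2 were lower and 0 higher in edgeR. At an unadjusted p under 0.05, for which the share of all genes is not given here, 3 were lower and 1 higher. DESeq2 called none of them, where it called 795 higher and 1040 lower of 10636 genes. The edgeR calls were 25.0% of the list, against 41.3% of all genes tested. The lower ones were Unc-76, a kinesin-1 adaptor of axons, and Mapmodulin, with log2 fold changes of -0.70 (SE 0.20) and -0.39 (SE 0.13). The call was lost in 5 of 13 alternatives for Unc-76 and in 7 for Mapmodulin. For both these included leaving out wildtype replicate 1, wildtype replicate 2 or mutant replicate 1. The log2 fold changes were then -0.70, -0.71 and -0.49 for Unc-76 and -0.44, -0.36 and -0.38 for Mapmodulin. Leaving out mutant replicate 2 also ended the call of Mapmodulin (-0.43). The microtubule-associated protein ensconsin, ens, an activator of kinesin-1 in the oocyte, had 53.8 and 48.9 CPM in the wildtype and 55.0 and 53.7 CPM in the mutant libraries. Tm1, whose atypical isoform links Khc to oskar mRNA, had 45.0 and 48.5 CPM against 64.9 and 58.1 CPM, without passing (edgeR adjusted p = 0.052). These values are of the Tm1 transcript with the highest mean count, and whether it is that isoform was not tested.

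Among 18 tested kinesins of other families 10 were lower and 1 higher (61.1%, against 41.3% of all genes tested), with a median log2 fold change of -0.96. Those with the smallest p were cmet (-3.03, SE 0.16) and cana (-2.60, SE 0.14), the kinetochore kinesins of the CENP-E family, which had 62.5 and 75.8 CPM and 56.4 and 60.0 CPM in the wildtype against 8.32 and 8.73 CPM and 9.1 and 10.2 CPM in the mutant libraries. The 1 higher was Khc-73, a kinesin-3 (24.6 and 24.9 CPM against 37.9 and 38.2 CPM, log2 fold change 0.62, SE 0.13, edgeR adjusted p = 0.00753, and 0.0945 in DESeq2).

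**Figure D3:**
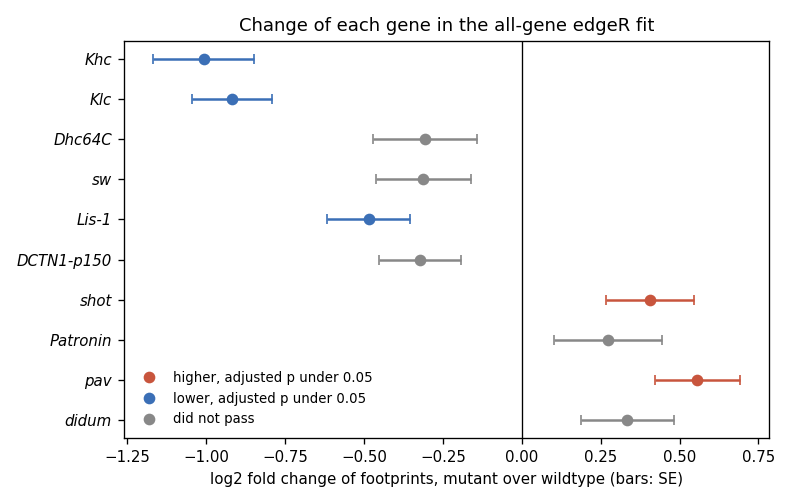
Log2 fold change of footprints, mutant over wildtype, of each gene in the edgeR fit over all genes, with bars of 1 standard error and colours for calls at an adjusted p under 0.05. Khc (-1.01), Klc (-0.92) and Lis-1 (-0.49) are lower, shot (0.41) and pav (0.56) higher, and the other 5 did not pass.

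The spectraplakin gene shot, whose protein crosslinks actin to microtubules, had 58.3 and 65.9 CPM in the wildtype and 79.7 and 85.3 CPM in the mutant libraries (180, 357, 1024 and 743 counts). Both mutant libraries were above both wildtype libraries. Footprints were higher by 0.41 on the log2 scale (SE 0.14, 95% interval 0.08 to 0.73), just inside the threshold (edgeR adjusted p = 0.0497). The call was lost in 8 of 13 alternatives, including each left-out library: leaving out wildtype replicate 1 or 2 gave an adjusted p of 0.191 or 0.0769, and leaving out mutant replicate 1 or 2 gave 0.125 or 0.174. It was 0.263 in DESeq2, and the log2 fold change stayed between 0.32 and 0.49. Per unit of length shot was the lowest of the 10 genes in every library, from 2.07 to 3.06 RPKM, on a counted transcript of 27842 nt.

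That transcript holds a stretch of 10035 nt, on chromosome 2R at 13884095 to 13894129, that only 1 of the 22 shot transcripts in the table includes and that lies within a single long exon. The counted transcript as a whole runs from 13864237 to 13910946 on the minus strand. Counts of the other transcripts allow the footprints inside and outside the stretch to be separated, because they add up exactly. The stretch had 27 and 58 counts in wildtype and 96 and 74 in mutant libraries, and the other 17807 nt had 153, 299, 928 and 669. The stretch therefore took 15.0% and 16.2% of shot footprints in wildtype and 9.38% and 9.96% in mutant libraries. The 95% Wilson intervals were 10.5% to 20.9% and 12.8% to 20.4% in the wildtype and 7.74% to 11.3% and 8.01% to 12.3% in the mutant libraries, so wildtype replicate 2 lies above both mutant intervals and wildtype replicate 1 overlaps them. These intervals cover counting error only. The exact two-sided permutation p was 0.333, the smallest that 2 against 2 libraries can give.

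In CPM, the stretch had 8.75 and 10.7 in wildtype and 7.47 and 8.5 in mutant libraries, and the rest of shot had 49.6 and 55.2 against 72.2 and 76.8. The stretch was thus lower and the rest higher in both mutant libraries. With the parts entered as separate features in the fit over all genes, a step added after seeing the data, the stretch had a log2 fold change of -0.32 with SE 0.21 (edgeR's adjusted p = 0.273) and the rest one of 0.50 (SE 0.14, edgeR adjusted p = 0.0215). Per kilobase, the stretch had 0.313 and 0.344 times the footprints of the rest in the wildtype and 0.184 and 0.196 times in the mutant libraries.

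**Figure D4:**
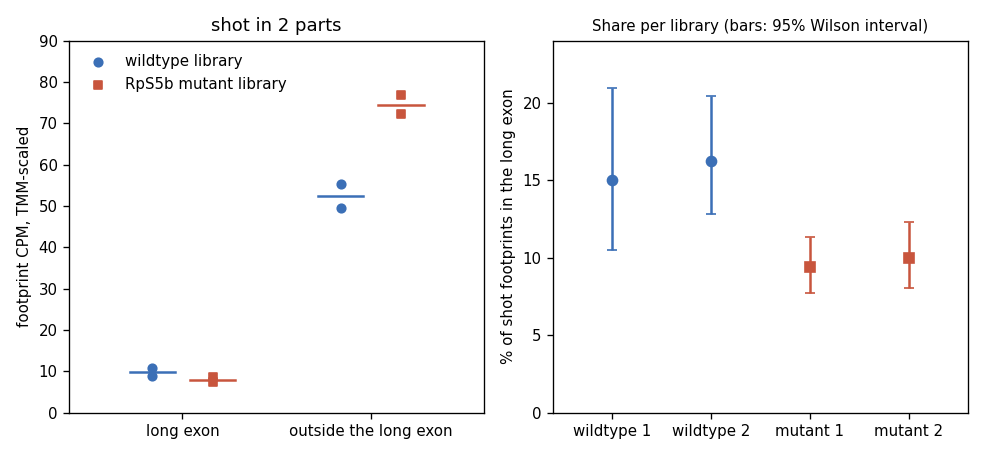
Footprints of shot inside and outside the 10035 nt stretch of its long exon, as CPM in each library (left, lines for group means) and as the percent of shot footprints inside the stretch with 95% Wilson intervals (right). Outside the stretch both mutant libraries are higher (72.2 and 76.8 CPM against 49.6 and 55.2 CPM), and the share inside it is 9.38% and 9.96% against 15.0% and 16.2%.

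Patronin, which caps and shelters microtubule minus ends, had 29.8 and 21.6 CPM in the wildtype and 29.9 and 31.2 CPM in the mutant libraries. Wildtype replicate 1 was level with the mutant libraries, and in RPKM, scaled to all reads, the groups overlapped (4.76 and 3.06 against 4.45 and 5.04). The log2 fold change was 0.27 (SE 0.17, 95% interval -0.12 to 0.67, edgeR adjusted p = 0.236). Without wildtype replicate 2 it was 0.02, and without wildtype replicate 1 it was 0.50 (adjusted p = 0.0501). Patronin lies on the minus strand of chromosome 2R at 17519689 to 17535866. The ratio of shot to Patronin in RPKM was 0.435 and 0.679 in wildtype and 0.593 and 0.608 in mutant libraries, which overlap.

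Of 13 other tested genes for microtubule end binding and anchoring, 9 were lower and 2 higher (84.6%, against 41.3% of all genes tested), with a median log2 fold change of -0.78. The lower ones named by rule were asp, a spindle pole protein that binds minus ends (log2 fold change -3.13, SE 0.17), and tacc, a partner of the polymerase Msps at centrosomes and spindle poles (-1.83, SE 0.14). The higher ones were Msp300, a giant nesprin that ties nuclei to the cytoskeleton and is also a muscle protein, at 47.6 and 52.2 CPM against 130.0 and 141.0 CPM, and Jupiter, a microtubule-associated protein (log2 fold changes 1.44 and 0.96). The part of the muscle markers given above in the level of Msp300 was not tested.

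The kinesin-6 gene pav, which forms centralspindlin with the GTPase-activating protein encoded by tum, had 40.5 and 39.9 CPM in the wildtype and 55.5 and 62.7 CPM in the mutant libraries (125, 216, 714 and 546 counts). The wildtype libraries were nearly level, and both mutant libraries were higher. The means of 40.2 ± 0.442 and 59.1 ± 5.05 CPM (SD, n = 2 each) gave a log2 fold change of 0.56 with SE 0.13 (edgeR's adjusted p = 0.0142). The call was lost when wildtype replicate 1 or 2 was left out (adjusted p = 0.0509 or 0.0682), when mutant replicate 2 was (0.0569), with libraries thinned to one total (0.0712) and in DESeq2 (0.11), with the fold change between 0.43 and 0.62 over all alternatives. Its 1 transcript, of 3207 nt, lies on the plus strand of chromosome 3L at 4242734 to 4246233.

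The partner of Pavarotti in centralspindlin, tum, chosen here after its values were seen, was lower. Tum, also known as RacGAP50C, had 30.4 and 23.1 CPM in the wildtype and 18.6 and 16.8 CPM in the mutant libraries, a log2 fold change of -0.57 with SE 0.16 (edgeR's adjusted p = 0.0282). Its call was lost in 4 of 13 alternatives: without wildtype replicate 1 (log2 fold change -0.38, adjusted p = 0.116), without mutant replicate 2 (0.0763), with total counts (0.0542) and in DESeq2 (0.164). The RPKM ratio of pav to tum was 0.976 and 1.27 in wildtype and 2.19 and 2.74 in mutant libraries. Relative to Khc, the motor whose sliding of microtubules Pavarotti opposes in fly cells, the RPKM ratio of pav was 0.21 and 0.248 against 0.608 and 0.747. Both ratios set a gene called higher over a gene called lower, so their shifts restate those calls. The exact permutation p of each was 0.333, the smallest possible. Among 12 genes of centralspindlin and cytokinesis 2 were higher, the myosin regulatory light chain sqh and Septin1 (log2 fold changes 0.68 and 0.60), and 3 were lower, tum, the spindle midzone protein feo (-1.34) and the anillin gene scra (-0.58). These calls were 41.7% of the list, near the 41.3% of all genes tested. Septin1 lost its call in DESeq2 (adjusted p = 0.132) and without mutant replicate 1 (log2 fold change 0.51). The call of scra was lost with total counts (edgeR adjusted p = 0.054), in DESeq2 (0.0966) and without mutant replicate 2 (log2 fold change -0.53).

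The myosin V gene didum had 27.2 and 22.5 CPM in the wildtype and 32.4 and 29.6 CPM in the mutant libraries (84, 122, 416 and 258 counts). The mutant libraries were higher by a margin smaller than the distance between the wildtype libraries. The log2 fold change of 0.33 (SE 0.15, 95% interval -0.01 to 0.68) did not pass (edgeR adjusted p = 0.106). Relative to Khc, with which myosin V shares the delivery of oskar to the posterior, the RPKM ratio of didum was 0.0741 and 0.0735 in wildtype and 0.186 and 0.185 in mutant libraries. As Khc was called lower and didum did not pass, this ratio largely restates the fall of Khc. Its exact permutation p was 0.333, the smallest possible. The gene lies on the plus strand of chromosome 2R at 7500147 to 7508237.

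Of 12 tested myosins and partners of myosin V 3 were higher and 4 lower (58.3%, against 41.3% of all genes tested). Myo61F, a class I myosin, had 24.3 and 21.8 CPM in the wildtype and 57.3 and 48.1 CPM in the mutant libraries (log2 fold change 1.20, SE 0.15), and Mlc-c, a light chain of unconventional and nonmuscle myosins, was also higher (0.51). Rip11, an effector of Rab11 that works with myosin V in fly photoreceptors, fell from 49.6 and 40.6 CPM to 11.6 and 8.15 CPM (-2.16, SE 0.20), and calmodulin, Cam, the light chain of many myosins, was lower (-0.76, SE 0.18). Mlc-c lost its call with total counts (edgeR adjusted p = 0.0551), with libraries thinned to one total (0.0841) and in DESeq2 (0.15). It also lost it without wildtype replicate 1 or 2 or mutant replicate 1 (log2 fold changes 0.46, 0.56 and 0.38). Cam lost its call without wildtype replicate 1 (log2 fold change -0.60).

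**Figure D5:**
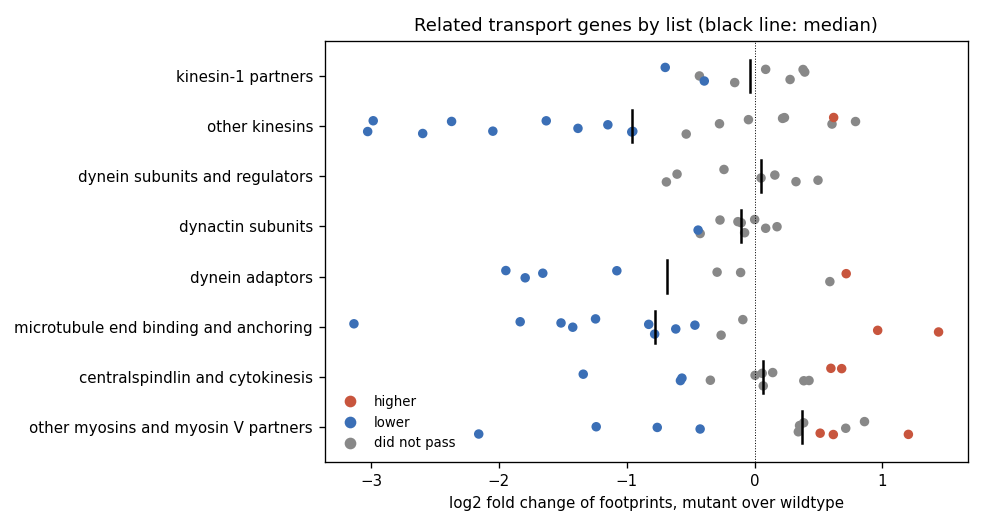
Log2 fold change, mutant over wildtype, of each tested gene in 8 lists of related transport genes, 1 point a gene, coloured by its edgeR call at an adjusted p under 0.05, with a black line at each list's median. The dynein, dynactin and kinesin-1 partner lists lie near 0, and the other kinesins (-0.96), dynein adaptors (-0.69) and microtubule end genes (-0.78) have medians below 0.

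Over all 106 related genes listed, 87 were tested, 9 were higher and 33 lower, and 48.3% passed, against 41.3% of all genes tested. By the distance between centred log2 CPM profiles over the 4 libraries, with 73 related genes as candidates, the nearest profile to Khc was that of the kinesin-13 gene Klp10A (distance 0.154) and the nearest to Klc that of the kinesin Klp67A (0.0403). The gene nearest to Lis-1 was chb, a plus-end binding CLASP (0.0317), the nearest to shot was Myo31DF (0.0747) and the nearest to pav was Khc-73 (0.132).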

How the data were processed

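Footprint libraries of 4 ovary samples were analysed; RNA-seq libraries were not used here. The authors deposited 1 table per library with 34729 transcripts. Per the file headers, counts are reads of 25 to 100 nt, placed 12 nt from their 5′ end, in whole transcripts with no mask. The deposited RPKM is the count per kilobase of transcript, scaled to the library total in the header, and the deposited coverage signal is the count divided by transcript length. Footprints of 28 to 34 nt were selected, per the labels' protocols. Per the submitters' processing notes the build was BDGP6 and the tools were TopHat2 2.1.2 and Bowtie 1.0.0, bedtools 2.26.0, SAMtools 0.1.19 and, without a version, DESeq2, with roles not given in the sources used here. Whether counting used strand is not given either.

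Transcripts were tied to RefSeq gene names by coordinates: 99.5% were named, and the other 185 (0.101% to 0.119% of counts) were left out. A read counts in every transcript it overlaps, so the transcript with the highest mean count stood for its gene. Transfer RNA took 54.8% to 63.9% of counts over genes. Counts were filtered with filterByExpr, scaled by TMM and tested with edgeR 4.0.16 in R 4.3.3 (quasi-likelihood, genotype only, 2 residual and 5.52 prior degrees of freedom, Benjamini-Hochberg over 7784 genes); DESeq2 1.42.0 was an alternative. In simulated counts for 7679 genes, 97 were changed by 1 and 99 by 2 on the log2 scale. The edgeR fit called 64.9% of the 97, with a false call in 5 of 7483 unchanged genes. In the data 41.3% of all genes tested passed, and the rate of false calls at that share was not tested. Intervals of log2 fold changes use a t quantile, and SD is over n = 2 libraries.

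The members and lists were chosen with earlier results of these data known. By rule, the text names all members, RpS5b, and per list and direction up to 2 called genes with the smallest p and a mean of at least 10 CPM; dynein, dynactin and kinesin-1 partner genes may also be given, with the related gene of nearest profile (log2 of CPM plus 0.5). BicD, egl, tum and the markers vas, yl, osk, stau, Bic-C, aub, Vm26Aa, crq, nrv3 and apolpp lie outside this rule and were named after their values were seen. The symbol BicDR had no match and is not analysed here.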

Additional observations from a re-analysis of the deposited data

How the results depend on the processing

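Over 13 alternatives, no member's log2 fold change turned its direction. The members called lower numbered 3, and 5 with the replicate block, where sw (adjusted p = 0.0323) and DCTN1-p150 (0.0314) joined; DCTN1-p150 also passed with protein-coding genes only and with a filter of 10 CPM in 2 libraries. It was 2 with total counts, in DESeq2 and without each single library, where Lis-1 dropped out. The members called higher numbered 2, and 1 with DESeq2 size factors in edgeR and with total counts, 0 in DESeq2's Wald test and with libraries thinned to one total (1 at an unadjusted p under 0.05 in each), and 0 to 1 without single libraries (1 to 3 at an unadjusted p under 0.05). Dhc64C, Patronin and didum passed in no alternative. Among all genes, 1589 were higher and 1625 lower; DESeq2 called 795 and 1040, and leaving out single libraries gave 1035 to 1410 and 1211 to 1534. Of 87 related genes 9 were higher, where 1589 of all 7784 genes were. With protein-coding genes only it was 18 of 87, where 1714 of 7101 genes were. With no filter on low counts it was 16 of 94 (1942 of 10636 genes) and in DESeq2 4 of 94 (795 of 10636 genes). With the replicate block it was 19 of 87 (1936 of 7784 genes). The labels number replicates 1 and 2 in both groups, with no statement of what a number shares; deviations of replicate 1 from the group means correlated at 0.246 across 7784 genes, and the block raised the calls to 1936 and 1898. The causes of these changes were not tested. The median over all genes was 0.03 with TMM, 0.10 with total counts and -0.0009 with DESeq2 size factors. With libraries thinned to the smallest total, shot (adjusted p = 0.116) and pav (0.0712) lost their calls.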
